A study of Mus musculus with 2 samples.

Results

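Nonsense-mediated decay is the surveillance pathway that destroys messenger RNAs whose reading frame ends too early. UPF1, an RNA helicase, is phosphorylated by the kinase SMG1 with the help of UPF2 and the UPF3 proteins, and phosphorylated UPF1 recruits SMG6 and SMG5. SMG6 cuts the target RNA near the stop codon, whereas SMG5 takes part in the route that leads to removal of the cap and the poly(A) tail. The genes described here are Smg6 and 6 other factors of this pathway, Smg1, Smg5, Upf1, Upf2, Upf3a and Upf3b, chosen by symbol. All 7 had a row among the 21113 genes of each table. The set was put together because Smg6, a neighbour of the targeted microRNA locus, was already known to be higher in these data, so the Smg6 difference is a description.

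The mice were of strain C57BL/6, and their mammary gland RNA was taken at week 6 after birth. One library was wild type, and 1 came from Mir212/132 ILN/ILN tissue, which is homozygous for an IRES-LacZ-Neo cassette inserted into the locus of miR-212 and miR-132. The labels do not say whether a sample was 1 animal or a pool. With 1 library per genotype no test can be made, and the differences have no replicates behind them. Poly(A) RNA sequencing assigned 46133338 wild-type fragments and 42953129 ILN/ILN fragments to genes. A level is the deposited FPKM-like value, which is scaled for the length deposited for each gene and for library size. A ratio is that of fragments scaled by the library totals, ILN/ILN over wild type, followed by its exact 95% interval in parentheses. These intervals cover counting error only, not differences between animals or dissections.

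The 2 microRNAs at the targeted locus share 1 seed, the stretch of bases 2 to 8 that pairs with target transcripts. They are shown with the seed in capitals, 5′ to 3′, because matches to it are looked for in the decay factors further on. Both sequences are RefSeq entries on the plus strand of build GRCm38.p6, at chr11:75173723-75173744 for miR-132-3p and chr11:75173443-75173464 for miR-212-3p.
miR-132-3p: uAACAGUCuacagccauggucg
miR-212-3p: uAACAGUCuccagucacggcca
The microRNA transcripts themselves were not analysed here, so they give no check of the genotype labels.

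Levels of several cell type markers differed between the 2 libraries. Of 11 measured luminal epithelial markers 10 were past 1.5-fold lower in the ILN/ILN library. The remaining measured marker, Esr1, was at 8.90 in wild type and 11.2 in ILN/ILN (ratio 1.26; 1.18 to 1.34). The summed level of the 15 listed genes was 58.7 in wild type and 12.55 in ILN/ILN, and Esr1 made up most of the ILN/ILN sum. Krt8, Elf5, Cldn7, Csn3 and Pgr were at 0 in ILN/ILN. Of these, Elf5 (0.52), Csn3 (0.027) and Pgr (0.039) were below a level of 1 in wild type as well. Their wild-type fragments were 51, 2 and 13. The upper limit of the ratio was 0.081 for Elf5 and 0.35 for Pgr, whereas the loss of Csn3 cannot be read. Of 8 basal markers the keratin genes Krt5, Krt14 and Krt17 were at 0 in ILN/ILN and below a level of 1 in wild type. Their wild-type fragments were 78, 62 and 59, and the upper limits of their ratios were 0.052, 0.066 and 0.069. These 3 were thus lower, but the minimum level left them out of the measured markers. None of the 5 measured basal markers was past 1.5-fold, with 2 above 0 and 3 below on the log2 scale, and the summed levels of the 8 were 71.7 and 55.9. All 8 B cell and all 10 T cell markers were past 1.5-fold lower, with summed levels of 193 against 35.5 and of 106 against 38.9. None of 12 white adipocyte markers was past 1.5-fold, with 9 above 0 and 3 below on the log2 scale (median 0.12). Their summed levels were 87545 and 78855, a sum in which Cfd, 1 of the 3 below, stood at 33952.5 and 25465.8. Macrophage markers were past 1.5-fold lower in 4 of 9 (summed levels 2025 and 1324), and cycling cell markers in 5 of 9 measured (40.8 and 26.9). Endothelial markers lay on the same side as Smg6 in 7 of 8, none past 1.5-fold, with a median log2 ratio of 0.33 and summed levels of 141 and 169.98. None of 9 fibroblast markers was past 1.5-fold (median log2 ratio 0.03). Of all measured genes 2.88% were past 1.5-fold higher and 7.59% lower. In bulk tissue fewer cells of a type and less RNA per cell cannot be told apart, and the part of these cell types in the values given next was not tested.

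Smg6 was the member that stood apart. Its level was 8.48 in wild type against 14.5 in ILN/ILN, from 2364 and 3752 fragments, a ratio of 1.70 (1.62 to 1.80). The levels of the other 6 lay close together between the libraries, with ratios from 0.904 to 1.08, and no upper limit of their intervals was above 1.18. Past 1.5-fold, 1 of the 7 members was higher and 0 were lower. Over all 11528 measured genes, those with a level of at least 1 in either library, 2.88% were past 1.5-fold higher and 7.59% lower. Because Smg6 was chosen for its difference, nothing is read from its count.

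**Figure D1:**
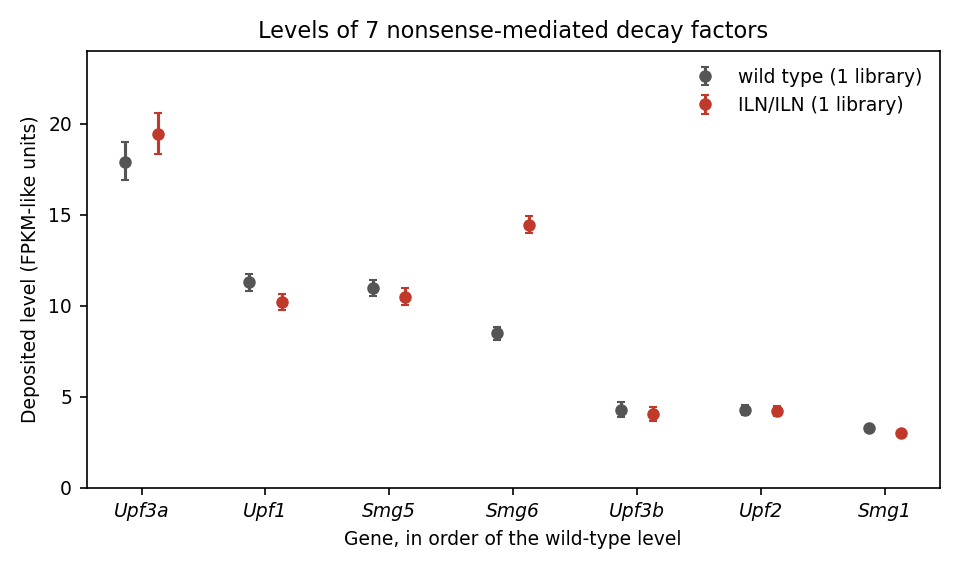
Deposited level (FPKM-like units, vertical axis) of the 7 decay factors in the wild-type (grey) and ILN/ILN (red) library, 1 library each, ordered by the wild-type level. Bars are exact 95% Poisson intervals for counting error; Smg6 moves from 8.48 to 14.5, while the points of the other genes lie near each other.

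The surveillance helicase and its activating kinase were slightly lower in the ILN/ILN library. Upf1 was at a level of 11.3 in wild type and 10.2 in ILN/ILN, from 2437 and 2051 fragments, with a ratio of 0.904 (0.852 to 0.959). Smg1, the kinase that phosphorylates UPF1, was at 3.29 and 3.005, from 2471 and 2102 fragments, with a ratio of 0.914 (0.862 to 0.969). These were the 2 members whose intervals, for counting error only, lay wholly below 1, on the opposite side from Smg6. Their log2 ratios, -0.15 for Upf1 and -0.13 for Smg1, lay between the lower and upper quartiles of all measured genes (-0.18 and 0.19). Differences of this size were thus common among all genes. Upf1 was 1.11-fold and Smg1 1.09-fold lower.

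The bridging factors differed less. Upf2, which joins UPF1 to the UPF3 proteins, was at 4.265 and 4.22, from 1056 and 972 fragments (ratio 0.989; 0.905 to 1.08). UPF3A and UPF3B are paralogs that bind the exon junction complex, the protein mark left on spliced RNA. Upf3a was at 17.9 and 19.4, from 1155 and 1165 fragments (ratio 1.08; 0.998 to 1.18). Upf3b, which lies on the X chromosome, was at 4.28 and 4.04, from 439 and 386 fragments (ratio 0.944; 0.822 to 1.09). All 3 intervals included 1, and of the 6 other members Upf3a alone had a ratio above 1. Upf3a transcripts stood at 4.19 times the Upf3b level in wild type and 4.80 times in ILN/ILN, on the per-length scale.

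SMG5 and SMG6 share a fold related to 14-3-3 proteins, and SMG5 is the closest relative of SMG6 in the set. Smg5 was at 10.965 in wild type and 10.5 in ILN/ILN, from 2328 and 2075 fragments (ratio 0.957; 0.902 to 1.02). The level of Smg6 was thus 0.773 times that of Smg5 in wild type and 1.38 times in ILN/ILN. Of the summed level of these 2 genes, Smg6 made up 43.6% in wild type and 57.9% in ILN/ILN. Smg6 transcripts were below those of Smg5 in the wild-type gland and above them in the ILN/ILN gland.

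The order of the members shifted accordingly. In wild type the levels ran Upf3a, Upf1, Smg5, Smg6, Upf3b, Upf2 and Smg1 from high to low, with Smg6 in place 4. In ILN/ILN the order was Upf3a, Smg6, Smg5, Upf1, Upf2, Upf3b and Smg1, with Smg6 in place 2. The counting interval of the Smg6 level was 8.14 to 8.83 in wild type and 14.0 to 14.9 in ILN/ILN, apart from those of its neighbours in the order in both libraries. The intervals of Upf1 and Smg5 overlapped in both libraries, and so did those of Upf2 and Upf3b, so the order within these pairs is not settled. The summed level of the 6 other members was 52.0 in wild type and 51.4 in ILN/ILN, and the Smg6 share of all 7 was 14.0% and 22.0%.

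A further 13 measured genes act with these factors, and none of them was past 1.5-fold, beside 10.5% of all measured genes. Ruvbl1, an ATPase needed for the assembly of SMG1 complexes, had the highest ratio, 1.15 (1.05 to 1.26), and its partner Ruvbl2 had 1.02 (0.963 to 1.08). Etf1, which encodes the release factor that reads stop codons, was at a level of 20.4 and 23.1 (ratio 1.13; 1.08 to 1.18). Mov10, an RNA helicase that binds UPF1, was at 10.2 and 11.2 (ratio 1.09; 1.02 to 1.17). The regulators of SMG1 kinase activity, Smg8 and Smg9, had ratios of 1.009 (0.900 to 1.13) and 1.008 (0.912 to 1.11). Nbas and Dhx34, also linked to the pathway, had 1.05 (0.988 to 1.11) and 0.942 (0.858 to 1.03).

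The lowest ratios of these partners belonged to cap-binding and decapping proteins. Ncbp1, the large subunit of the nuclear cap-binding complex, was at 14.5 and 12.2 (ratio 0.845; 0.792 to 0.900), and the small subunit gene Ncbp2 had 0.931 (0.869 to 0.998). Pnrc2, which links UPF1 to decapping, was at 25.2 and 21.4 (ratio 0.848; 0.796 to 0.903). Pabpc1, the cytoplasmic poly(A)-binding protein that opposes decay near a stop codon, was at 244 and 228 (ratio 0.935; 0.920 to 0.950). The second release factor gene Gspt1 had 2028 and 1823 fragments (ratio 0.965; 0.906 to 1.03), whereas its deposited level was 21.5 and 31.8, since in both libraries it rested on the authors' derived estimate instead. Gspt2 did not reach a level of 1. The list had a median log2 ratio of 0.01, with 7 genes above 0 and 6 below, beside 0.02 over all measured genes.

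The exon junction complex, which marks spliced transcripts and recruits the UPF3 proteins, had log2 ratios from -0.37 to 0.19, beside -0.24 to 0.20 for the partners. None of its 10 measured genes was past 1.5-fold, beside 10.5% of all measured genes, and the median log2 ratio was -0.03. The core helicase gene Eif4a3 was at a level of 44.8 and 47.0 (ratio 1.05; 0.996 to 1.10). Of its other core subunits, Casc3 had a ratio of 1.03 (0.963 to 1.09) and Rbm8a 0.953 (0.885 to 1.03) from fragments. Magoh had 0.890 (0.828 to 0.957) and Magohb 0.774 (0.607 to 0.983), and both are uncertain because these near-identical genes can share reads. Among the peripheral factors Rnps1 had 1.04 (0.990 to 1.10), Pnn 1.004 (0.942 to 1.07), Sap18 1.14 (1.02 to 1.28) and Acin1 0.866 (0.821 to 0.912). Pym1, which takes the complex apart, had 0.936 (0.862 to 1.02). Members, partners and exon junction genes came to 30 measured genes, of which the 29 besides Smg6 had ratios from 0.774 to 1.15.

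**Figure D2:**
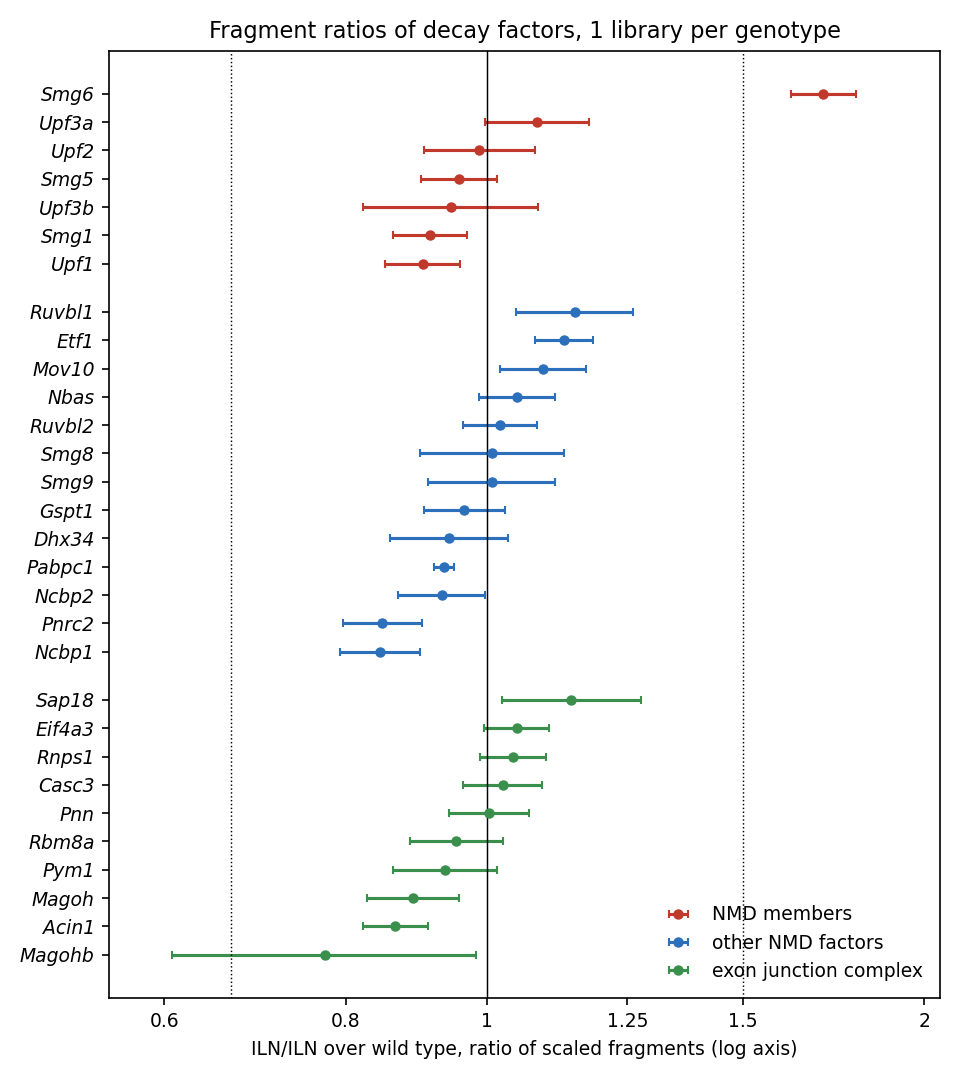
Ratio of scaled fragments, ILN/ILN over wild type (horizontal log axis), for the 7 members (red), 13 other factors of nonsense-mediated decay (blue) and 10 exon junction genes (green). Bars are exact 95% counting intervals and dotted lines mark 1.5-fold either way; Smg6 at 1.70 is the 1 gene of the 30 past a dotted line.

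The listed genes for enzymes that finish off cut or uncapped RNA also stayed within 1.5-fold, as did most measured genes. None of 16 decapping and 5′ to 3′ decay genes was past 1.5-fold (median log2 ratio -0.05), beside 10.5% of all measured genes. Xrn1, the cytoplasmic exonuclease that degrades the downstream piece left by a SMG6 cut, had 345 and 402 fragments and a log2 ratio of 0.32. Lsm4, Lsm7 and Lsm2, subunits of a ring that promotes decapping, had ratios of 0.838, 0.838 and 0.841. None of 18 exosome and Ski genes was past 1.5-fold either (median 0.02), beside the same 10.5%. Dis3l, a catalytic exosome subunit of the cytoplasm, was at 10.7 and 14.0 (ratio 1.31; 1.22 to 1.39), and Ttc37, a Ski complex scaffold, had 1.24 (1.11 to 1.39).

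Deadenylation genes spread more widely than the decapping and exosome lists, with log2 ratios from -0.57 to 0.65 (median 0.04). Past 1.5-fold, 1 of 14 measured genes was higher and 0 were lower, beside 10.5% of all measured genes past it either way. By this count they did not differ more often than genes in general. Cnot6l, a deadenylase subunit, was at 2.30 and 3.62 from 222 and 325 fragments (ratio 1.57; 1.32 to 1.87). It was not past 1.5-fold on deposited values with a pseudocount of 1, at a log2 ratio of 0.48. The antiproliferative adaptors of the same complex differed in opposite directions. Tob1 was at 21.5 and 31.6 (log2 ratio 0.56), whereas Btg2 was at 12.3 and 8.33 (1.48-fold lower; 1.38 to 1.60) and Btg1 at 19.4 and 14.15 (1.37-fold lower; 1.31 to 1.44). Btg1 and Btg2 are also well known in lymphocytes, whose markers were lower in this library. The part of those cells was not tested.

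SMG1 belongs to the kinase family of ATM, ATR and mTOR, which share the TTI and TELO2 chaperones, and SMG6 was first described as a telomerase-binding protein. None of 8 measured kinase and chaperone genes was past 1.5-fold (median log2 ratio 0.01), with Mtor at 12.2 and 14.2 (ratio 1.17; 1.13 to 1.22) and Atrip at 3.81 and 3.15 (ratio 0.828; 0.719 to 0.952). None of 11 measured telomere genes was past 1.5-fold (median -0.05), and the lowest were Nhp2, a telomerase RNA-binding protein gene, at 0.789 (0.732 to 0.850), and Terf1 at 0.801 (0.604 to 1.06). Tert, the telomerase reverse transcriptase, did not reach a level of 1. Past 1.5-fold either way were 10.5% of all measured genes. Neither list held a ratio as high as that of Smg6, but 98.6% of all measured genes also had a lower one. Nothing is read from this, because Smg6 was chosen for its difference.

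Transcripts reported to be cleared by nonsense-mediated decay were listed as well. Their gene totals also depend on transcription and on the cells present, so the activity of the pathway was not measured by them. The mRNAs of several decay factors, Upf1, Smg1, Smg5 and Smg6 among them, are themselves reported as targets. Of 16 stress-response transcripts of this kind 0 were past 1.5-fold higher and 1 was lower (median log2 ratio 0.06). Of all measured genes 2.88% were higher and 7.59% lower. Atf4, the transcription factor gene of the integrated stress response, was at 53.1 and 55.8, and its target Ddit3 at 18.4 and 18.2. Gadd45a, a growth arrest gene and classical target of the pathway, was at 2.76 and 3.39 (ratio 1.23; 0.983 to 1.53). Gadd45b was at 5.79 and 3.775 (1.53-fold lower; 1.29 to 1.83), which with a pseudocount of 1 on deposited values was a log2 ratio of -0.51, within 1.5-fold. Sesn2 was at 6.30 and 8.75 (ratio 1.39; 1.26 to 1.52). Atf4 and Ddit3 were chosen after their values were seen.

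Host transcripts of small nucleolar RNAs often end up as substrates, many of them because they encode no long protein. The list also holds the protein-coding hosts Eif4a2 and Rack1, to which this reason does not apply, and had 9 measured genes. Of these 1 was past 1.5-fold higher and 0 lower, beside 2.88% and 7.59% of all measured genes, with a median log2 ratio of -0.19. Gas5, the best known of them, was at 2.91 and 2.11 (1.38-fold lower; 1.17 to 1.64). Snhg3 had a ratio of 0.772 and Snhg12 of 0.807, whereas Snhg1 had 65 and 107 fragments (ratio 1.77; 1.29 to 2.44). Splicing factor and ribosomal protein genes that carry poison exons, alternative exons whose inclusion sends the transcript to decay, had 25 measured genes (median -0.05). Past 1.5-fold were 10.5% of all measured genes and none of the 25. The widest of these were Hnrnpll with 421 and 549 fragments (log2 ratio 0.49), Srsf11 at 1.29 (1.22 to 1.36) and Clk4 at 0.796 (0.714 to 0.887). The tables hold gene totals, so inclusion of a poison exon, or a decay-sensitive isoform of Smg6, Smg1 or Smg5, was not measured. In the GENCODE annotation each of these 3 members has 1 transcript of the nonsense-mediated decay class and the other 4 have 0.

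**Figure D3:**
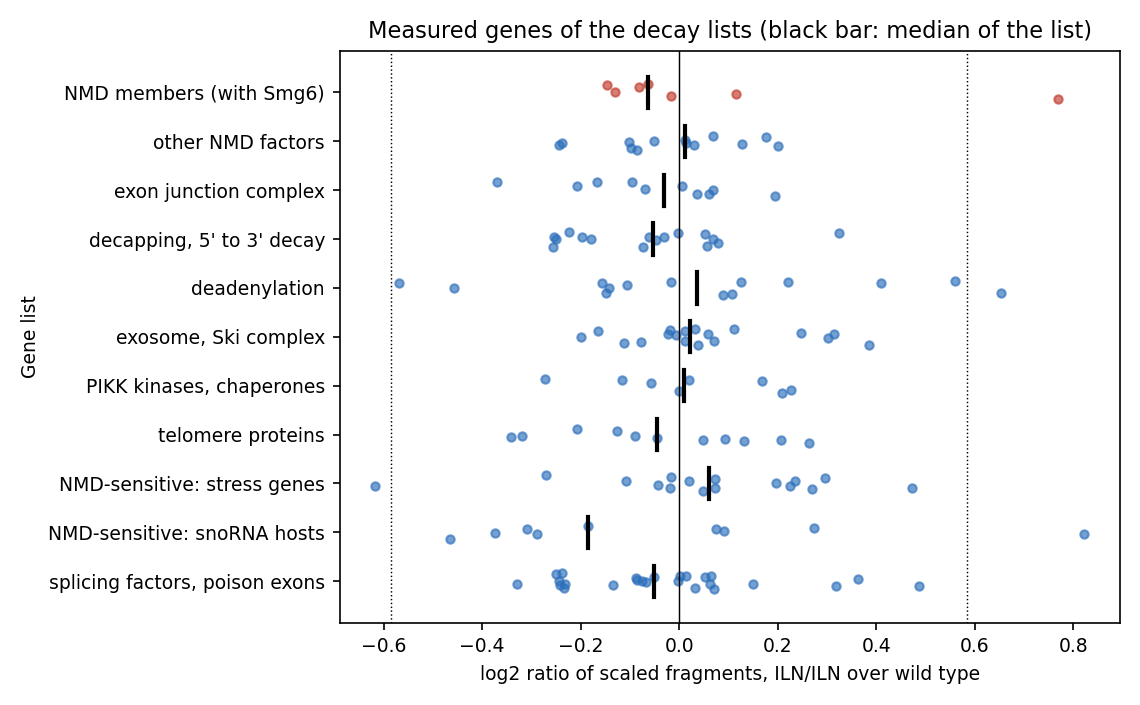
Log2 ratio of scaled fragments, ILN/ILN over wild type (horizontal axis), of each measured gene in 11 lists of decay factors, relatives and reported targets; vertical scatter within a row has no meaning. Black bars are list medians and dotted lines mark 1.5-fold; the medians lie between -0.19 and 0.06, and Smg6 is the rightmost of the red points at 0.77.

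The genes most like Smg6 were sought by the nearest log2 ratio among genes with a wild-type level within 1.5-fold, over 2 libraries. Predicted, clone-named and small RNA genes were left out of this search, but not out of the rank counts given below. One of the 4 nearest was Rtn4rl1 on chromosome 11, with a ratio of 1.70 (1.59 to 1.83). Rtn4rl1 encodes a Nogo receptor family member and lies on the far side of the microRNAs, with Hic1, Ovca2 and Dph1 between it and Smg6. The others were Crispld2 at 1.70 (1.59 to 1.82), B3galt2 at 1.72 (1.61 to 1.84) and Pcsk4 at 1.66 (1.51 to 1.82), which lie on chromosomes 8, 1 and 10. Their intervals overlap, so counting error does not settle which of the 4 is nearest. Of 2574 genes at a similar wild-type level 12 had a higher ratio than Smg6. Of 2383 genes with at least as many fragments, 7 did. These ranks describe a gene that was chosen for its difference.

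Immediately beside Smg6 the values went both ways. Srr, the serine racemase gene on the opposite strand, starts 94 bases from Smg6 in the RefSeq annotation, so their first parts overlap. It had 1873 and 2410 fragments (ratio 1.38; 1.30 to 1.47). Its deposited level, which rested on the authors' derived estimate in both libraries, was 19.2 and 29.5, a ratio of 1.54 and past 1.5-fold. At the other end Hic1, a transcriptional repressor gene that also runs on the opposite strand, had 874 and 120 fragments (6.78-fold lower; 5.60 to 8.28). The sources used here do not state whether counting used strand, and without strand fragments from overlapping parts cannot be told apart. In RefSeq (GRCm38.p6) the span of Smg6 overlaps that of Srr by 1680 bases and that of Hic1 by 3072 bases. Past Rtn4rl1, Tlcd2, a lipid-related membrane protein gene, had 320 and 803 fragments (ratio 2.70; 2.36 to 3.08). Of the 2 genes directly beside Smg6, Srr was thus above 1 and Hic1 far below it, and both had lower ratios than Smg6.

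Most other genes of the region were within 1.5-fold. Of 24 measured neighbours 2 were past 1.5-fold higher and 1 was lower, beside 2.88% and 7.59% of all measured genes. Their median log2 ratio was 0.08. Several within 1.5-fold had counting intervals that excluded 1, on both sides, such as Mettl16 (0.663 to 0.827) and Slc43a2 (1.19 to 1.32). Between Smg6 and Rtn4rl1 the diphthamide synthesis gene Dph1 had a ratio of 1.06 and Ovca2 0.981. On the Srr side Tsr1, a ribosome assembly gene, had 1.10, Sgsm2 1.09, the repressor gene Mnt 0.819, the RNA methyltransferase gene Mettl16 0.741 and Pafah1b1 1.03. Beyond Rtn4rl1 the replication protein gene Rpa1 had 1.13, Smyd4 1.06, Serpinf1 0.819 and Wdr81 0.787. After Tlcd2 the splicing factor gene Prpf8 had 0.999, Rilp 0.945, Scarf1 1.22, Slc43a2 1.26, Pitpna 1.07, Inpp5k 1.20, Myo1c 1.11, Crk 0.999 and Ywhae 0.861. By fragments, Rtn4rl1 and Tlcd2 were thus separated from Smg6 and Hic1 by genes within 1.5-fold. By deposited level Srr, Smg6 and Hic1 were adjacent genes past 1.5-fold, and 3 neighbours were higher with a pseudocount of 1.

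**Figure D4:**
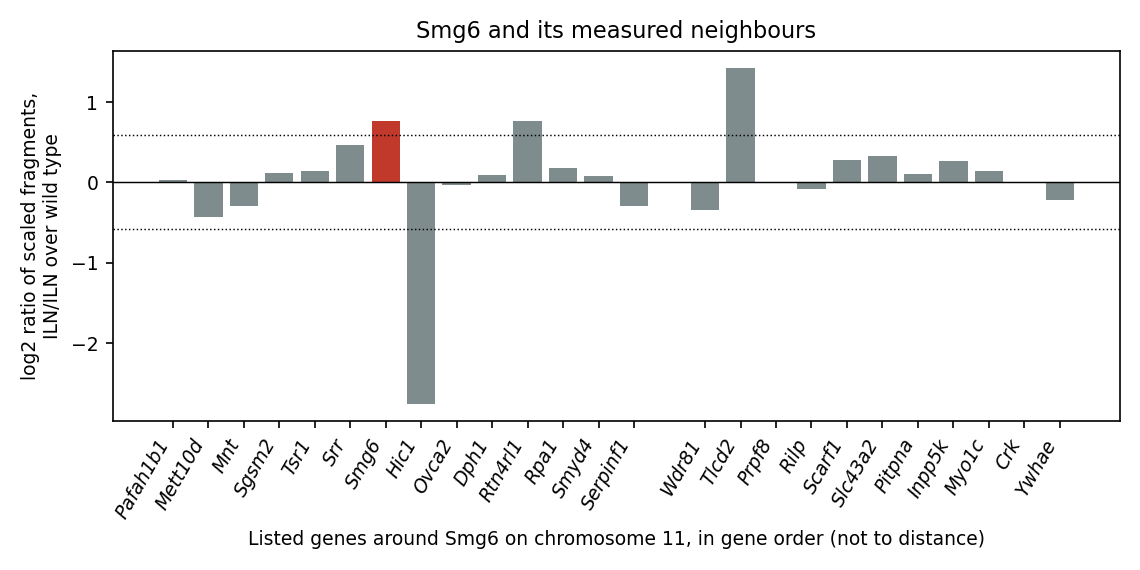
Log2 ratio of scaled fragments, ILN/ILN over wild type (vertical axis), of Smg6 (red) and its 24 measured neighbours (grey) in their order on chromosome 11, spaced by order and not by distance. Dotted lines mark 1.5-fold; Smg6 and Rtn4rl1 stand at 0.77, Tlcd2 at 1.43 and Hic1 at -2.76.

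Matches to the seed of the 2 microRNAs were found in 3 members, all with ratios below 1. The match to the shared seed, GACTGTT on the transcript strand, was searched in the longest GENCODE 3′ untranslated region of each gene. It occurred once each in Upf1, Upf2 and Upf3b, and in none of the other 4 members, Smg6 included, whose region has 1498 bases. The 3 matches are shown 5′ to 3′ with the seed match in capitals, because they are where members could pair with the microRNAs. In build GRCm38 they lie at chr8:70331847-70331866 (minus strand), chr2:6056116-6056135 (plus strand) and chrX:37092082-37092101 (minus strand).
Upf1: ctagagacctGACTGTTaaa
Upf2: aaactgtgaaGACTGTTaat
Upf3b: tgttggtgttGACTGTTgac
The 3 members with a match had ratios of 0.904, 0.989 and 0.944. The 4 without one had 1.70, 0.914, 0.957 and 1.08. Among 11295 measured genes searched 12.6% held the match, and such a match is a description of sequence, not a shown target site. Srr, Rtn4rl1, Tlcd2 and Hic1 held none.

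**Figure D5:**
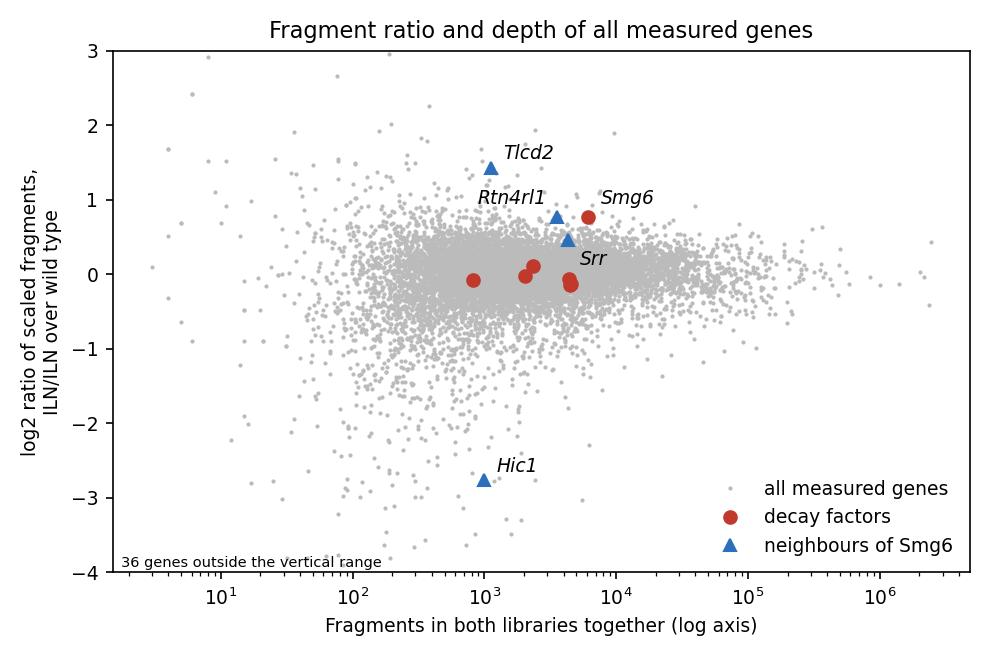
Log2 ratio of scaled fragments (vertical axis) against the fragments of both libraries together (horizontal log axis) for 11528 measured genes (grey), the 7 members (red) and 4 neighbours (blue triangles); 36 genes lie outside the vertical range. Smg6 sits at 0.77, while the other 6 members lie inside the grey band between -0.15 and 0.12.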

How the data were processed

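Polyadenylated RNA of 1 wild-type and 1 ILN/ILN mammary gland sample was sequenced after dUTP marking of the second strand, on 2 lanes per sample, per the labels' protocols. Build mm9, bedtools, TopHat 1.4.1 and Bowtie 0.12.3 are listed without roles, per the submitters' processing notes. The sources used here give neither the counting program nor its annotation and use of strand. The deposited FPKM-like value is a signal per kilobase scaled by a library constant. That deposited signal is whichever is larger, the authors' original or derived one, and the deposited log2 column is log2(value + 1). The original signal times the deposited length (column gEUMA) was whole, within 0.01, in 100% of genes above 0, and is called fragments here. All 7 members took their level from it. For 38 genes no length was given.

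Ratios of fragments were scaled by library totals, with exact conditional (Clopper-Pearson) 95% intervals. A count of 0 was set to 3 fragments. Genes past 1.5-fold were counted among those that reached a deposited value of 1 in at least 1 library. No test was made. Named were all members, their listed partners, exon junction genes and neighbours, up to 4 genes per other list by absolute log2 ratio, and the 4 genes most like Smg6. One listed gene is not reported here. Members and lists were chosen with earlier results of these data known. Older gene names, neighbour order and sequences came from RefSeq (GRCm38.p6) and GENCODE M21, whose build differs from mm9, so coordinates belong to the printed sequences only. Steps were tested on simulated data. Alternatives covered the source of the value, pseudocount, scaling, minimum and fold. Python 3.11.15, SciPy 1.17.1 and pandas 2.3.3 were used.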

Additional observations from a re-analysis of the deposited data

How the results depend on the processing

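The Smg6 log2 ratio of 0.77 moved beyond its counting interval under 1 of 7 alternatives, to 0.53 on deposited values with a pseudocount of 5, where 0 members were past 1.5-fold higher. With a 2-fold threshold 0 members were past it. The log2 ratios of the 6 other members stayed within their counting intervals in all 42 alternative values, and none of the 429 alternative values of all results turned a called direction. Counts over all genes, 332 higher and 875 lower, depended on the minimum and the threshold. They were 140 and 391 with a minimum value of 5, 1431 and 2547 with no minimum, 92 and 387 past 2-fold, and 1397 and 1814 with a threshold below 1.5-fold. On deposited values 220 were higher with a pseudocount of 1, and 67 higher and 225 lower with a pseudocount of 5. The deadenylation median was -0.11 with a minimum value of 5, where Cnot6l, Cnot7 and Pan3 drop out. On deposited values with a pseudocount of 1, 0 deadenylation genes were higher and 0 stress genes lower, against 1 each. No paired analysis was possible because each genotype had 1 library and no test was made. Depth limits Upf3b most among the members, with 386 fragments in the ILN/ILN library, and Snhg1 among the reported targets.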

Other observations

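Chromosome 11 as a whole did not differ as Smg6 did. Of 1014 measured genes on it 2.86% were past 1.5-fold higher and 8.58% lower, with a median log2 ratio of 0.01, beside 2.85%, 7.47% and 0.02 for 10480 measured genes on other chromosomes.

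Splicing factor genes with poison exons often had deposited levels that rested on the authors' derived estimate in at least 1 library. This held for 7 of 25 measured genes (28.0%), beside 7.58% of all measured genes, and 2 of the 25 (8%, beside 1.15% of all) were past 1.5-fold by level while within it by fragments. Srsf3, a serine/arginine-rich splicing factor, was at a level of 39.2 and 25.2 with 1398 and 1224 fragments, a fragment ratio of 0.940 (0.870 to 1.02). Clk1, a kinase of these splicing factors, was at 20.7 and 12.8 with 697 and 673 fragments (1.04; 0.931 to 1.15). Srsf9 was at 37.8 and 55.4 with 539 and 513 fragments (1.02; 0.904 to 1.16). Among the decay factors themselves, Rbm8a was at 77.1 and 51.4 with 1522 and 1351 fragments (0.953; 0.885 to 1.03). These genes were chosen after their values were seen, as was the comparison of chromosomes. Isoform levels were not analysed here.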
